A study of Ictidomys tridecemlineatus with 15 samples.

Results

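Blood clotting in mammals depends on plasma proteins that are made largely by hepatocytes, and 10 of their genes are described here across the hibernation cycle of the 13-lined ground squirrel: the clotting factors F2, F5, F7, F9, F10, F11 and F12, the anticoagulants Serpinc1 and Proc, and Plg, the precursor of the enzyme that dissolves clots. They were found by symbol among the units of the deposited count table, where a unit is a gene body or, when neighbouring genes overlap, a merged group of genes whose names are joined. Of the 10 genes, 9 had a unit among the 6324 units of the table, and F7, whose product starts clotting together with tissue factor, had none and was not analysed here. F5, F9, Proc and Plg had a unit of their own, whereas F2, F10, F11, F12 and Serpinc1 lay in merged units whose counts cannot be divided among the genes they hold.

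Nascent transcription was measured by GRO-seq (global run-on sequencing), in which RNA polymerases that were at work when the liver was frozen are let run on in isolated nuclei with a labelled nucleotide, so that the reads show engaged polymerases and not the amount of mRNA. For torpor the study proposes that initiation and termination stop while elongation goes on very slowly, in part past gene ends into adjacent genes. Torpid reads on a unit can therefore include polymerases that were loaded before torpor or on an upstream gene. Their part in the values below was not tested. The livers came from female squirrels of a breeding colony, kept in the laboratory and fitted with implanted temperature recorders, and no genotype, drug or age separates the groups in the labels. Summer active (SA, n = 3) animals were homeothermic before hibernation began, interbout aroused (IBA, n = 3) animals were warm between torpor bouts, and Ent animals (n = 3) were cooling into torpor. Early torpor (ET, n = 3) and late torpor (LT, n = 2) animals were cold. A further LT library, replicate 2, was removed by the authors and not analysed here. In what follows, warm stands for the 6 SA and IBA libraries together and torpid for the 5 ET and LT libraries together, and each library is 1 animal.

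The intrinsic pathway runs from F12 through F11 and F9 to F10, which with its cofactor F5 converts prothrombin, the product of F2, into thrombin. Thrombin in turn makes fibrin from fibrinogen. Antithrombin, encoded by Serpinc1, inhibits thrombin and activated F10, while activated protein C, from Proc, cuts the activated cofactors, and plasmin, from Plg, degrades fibrin. Torpid hibernators are known for a low tendency to clot despite slow blood flow.

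The libraries held between 3713883 and 8884763 counts on the units, and values are given as CPM, TMM-normalized counts scaled to a common library size (the usual CPM of edgeR), which are shares of a library and cannot show a change that all genes share. In no pair of libraries did more than 0.648% of the units hold equal counts. Animal records place the collection in separate seasons. The first season supplied SA replicate 1, Ent replicates 1 and 2 and both LT libraries, the second all ET libraries, and the third SA replicates 2 and 3, all IBA libraries and Ent replicate 3. The state and the season can therefore not be told apart in comparisons with ET. SA replicate 1 was the only SA or IBA library that shared a season with any ET or LT library. State and season are therefore largely confounded when SA and IBA together are compared with ET and LT together. Of 8 hepatocyte markers, 7 had a unit, and their summed level was 13200 to 22700 CPM in SA, 14100 to 19700 in IBA, 10700 to 13300 in Ent, 5290 to 9230 in ET and 6670 to 10300 in LT, and so was lower in every torpid library than in any warm one. The part of this difference in the results that follow was not tested, and in a bulk liver sample fewer cells of a type and less RNA per cell cannot be told apart. Of the markers of other liver cell types, 3 of 7 for endothelium had a unit, with a summed level of 186 to 241 CPM in the warm and 124 to 203 CPM in the torpid libraries. Of these, Kdr changed by -0.86 on the log2 scale from warm to torpid liver (edgeR, adjusted p = 0.00094) and Pecam1 by -0.68 (adjusted p = 0.0091). Stab1 went the other way, at 0.39, and did not pass (adjusted p = 0.067). Of 5 cholangiocyte markers Sox9 alone had a unit, with 16.5 to 41.0 CPM in the warm and 7.07 to 18.1 CPM in the torpid libraries (-1.33, adjusted p = 0.00046). Of 7 macrophage markers Cd68 alone had one, a merged unit with 374 to 607 CPM in warm and 236 to 523 CPM in torpid livers. The part of these markers in the results was not tested either. Units were found for 0 of 6 stellate, 0 of 4 lymphocyte and 0 of 4 erythroid markers.

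Transcription of Plg, Proc, F5, F9 and the unit holding F11 was lower in torpid than in warm liver, and that of the units holding F2, F10, F12 and Serpinc1 did not pass the test in either direction. Every member with a unit of its own fell, and every unit that did not pass was merged with other genes. A lack of change in a merged unit is therefore not a result about the member alone. In a fit of single-gene units only, 4 of 4 members were called lower, where 1603 of 4705 units were. The study left merged units out of its own list of differentially transcribed genes. In the quasi-likelihood test of edgeR, adjusted over all units by Benjamini and Hochberg's method, 5 of the 9 units were called at an adjusted p of 0.05, all lower in torpor, against 33.7% of all units called lower and 64.5% called in either direction. At the stricter threshold of 0.001, 4 were called, against 17.6% of all units called lower. The median log2 fold change of the 9 was -0.57, beside -0.04 over all units. A change is a log2 fold change, the second state minus the first, with its standard error. The libraries of the warm and torpid groups did not overlap in 4 of the 9 units, each lower in torpor (19.5% of all units were separated in that direction). All these warm to torpid values are largely confounded with the season of collection, as given above.

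Plg had the lowest adjusted p of the 9 units. It lay on Itri8 of the HiC_Itri_2 genome, minus strand, from 144519581 to 144556134. Its libraries, in replicate order, held 906, 715 and 835 CPM in SA, 792, 899 and 856 in IBA, and 769, 821 and 824 in Ent. They held 592, 366 and 407 CPM in ET and 412 and 347 in LT (replicates 1 and 3). Every library of the first 3 states was above every torpid library. The mean was 834 ± 71.7 CPM (SD, n = 6) in warm and 425 ± 97.4 CPM (SD, n = 5) in torpid liver, a log2 change of -1.0 (SE 0.13, adjusted p = 3.2e-05). Entering livers had not left the warm range, the change from IBA to Ent being -0.08 (SE 0.17, adjusted p = 0.79), and the fall came between Ent and ET, at -0.82 (SE 0.17, adjusted p = 0.0048). From LT to IBA the unit rose by 1.16 (SE 0.20, adjusted p = 0.00054), or 2.24-fold.

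**Figure D1:**
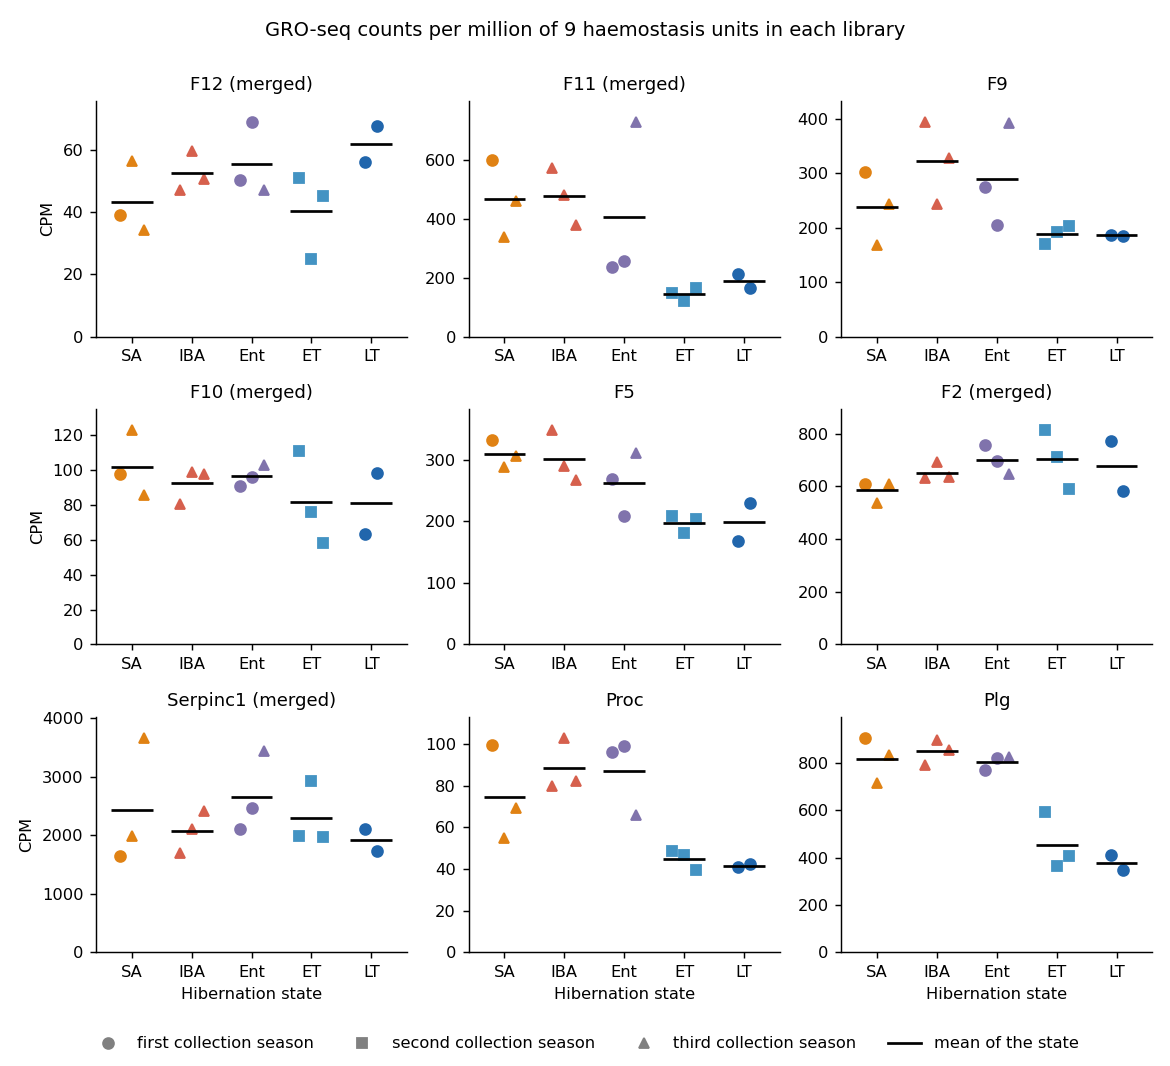
Transcription of the 9 units in each GRO-seq library, in CPM, by hibernation state. Each point is 1 animal, its shape the season of collection, and the black line the mean of the state. In Plg, Proc and the F11 unit all torpid points lie below all others, whereas in F2, F10, F12 and Serpinc1 the torpid and warm points overlap.

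Proc, which encodes protein C, followed a pattern like that of Plg at a lower level. The gene lay on Itri6, plus strand, from 97767928 to 97778830. SA libraries held 99.5, 55.0 and 69.2 CPM, IBA libraries 79.9, 103 and 82.5, and Ent libraries 96.2, 99.0 and 65.8. ET libraries held 48.7, 46.9 and 39.3 CPM and LT libraries 41.0 and 42.3. The torpid livers again lay below all others, and they differed less among themselves (43.6 ± 4.04 CPM, SD, n = 5) than the warm livers did (81.6 ± 18.2 CPM, SD, n = 6). The change from warm to torpid was -0.91 (SE 0.17, adjusted p = 0.00041), that from Ent to ET -0.95 (SE 0.22, adjusted p = 0.0071), and that from LT to IBA 1.09 (SE 0.25, adjusted p = 0.0034). As a description over the 14 libraries, which share their states and depth, the log2 CPM of Proc and Plg had a Pearson r of 0.88, the highest of any pair of members.

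The unit that holds Serpinc1, the gene of antithrombin, had the highest level of the 9 units, which cannot be assigned to Serpinc1 itself, and none of its changes between states passed the test. It ran from 96134919 to 96190677 on the plus strand of Itri9 and held 12 names, among them LOC101963015, a lncRNA in the RefSeq annotation, and snoRNAs that in other mammals sit in the introns of Gas5. Zbtb37, on the opposite strand, overlapped it, and the strand setting of the counting is not given in the sources used here. It held 1640, 1990 and 3660 CPM in SA, 1690, 2110 and 2410 in IBA, 2100, 2460 and 3440 in Ent, 1980, 2920 and 1960 in ET, and 2100 and 1730 in LT. All 5 states overlapped except LT with Ent, and the spread within SA (2430 ± 1080 CPM, SD, n = 3) was wider than the distance between any 2 state means. Its change from warm to torpid was -0.10 (SE 0.23, adjusted p = 0.72). Proc passed this test and the Serpinc1 unit did not, and the difference between them was not itself tested. The within-library ratio of Proc to the Serpinc1 unit, which does not depend on the scaling of libraries, was 0.0189 to 0.0608 in warm and 0.0161 to 0.0246 in torpid livers, and these ranges overlapped.

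Among the clotting factors, the largest difference was in the unit of F11 and Klkb1, which encodes prekallikrein of the contact system, on the plus strand of Itri17 from 34853817 to 34904489. It held 598, 338 and 462 CPM in SA and 574, 482 and 380 in IBA. In ET it held 149, 121 and 165 CPM and in LT 211 and 166. The warm mean of 472 ± 103 CPM (SD, n = 6) stood against 162 ± 32.8 CPM (SD, n = 5) in torpor, a log2 change of -1.51 (SE 0.29, adjusted p = 0.00055). The Ent livers split: replicates 1 and 2, of the first season, held 237 and 256 CPM, between the warm and the torpid ranges, while replicate 3, of the third season, held 727, above every other library. Without Ent replicate 3, the change from IBA to Ent was -0.96 and passed the test (adjusted p = 0.038), against -0.23 (SE 0.37, adjusted p = 0.70) with it. The change from Ent to ET moved from -1.49 (SE 0.38, adjusted p = 0.012) to -0.76 (adjusted p = 0.036) when that library was left out. Which of the 2 genes the reads came from cannot be told from the table. F12, which activates F11, lay in a unit with Pfn3, a profilin gene, on the minus strand of Itri1 from 122659077 to 122669521. This unit had the lowest counts, 128 to 461 in a library, with 34.3 to 59.8 CPM in warm and 25.1 to 67.9 CPM in torpid livers, and its change was 0.08 (SE 0.20, adjusted p = 0.75). Within libraries, the ratio of the F11 unit to the F12 unit was 6.0 to 15.3 in warm and 2.44 to 4.82 in torpid livers, so that these contact-pathway units separated in every animal of the 2 groups.

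F9 and F10 encode vitamin K-dependent proteases that act one after the other. F9 lay on Itri10, plus strand, from 107524992 to 107564947. Its libraries held 302, 169 and 244 CPM in SA, 393, 244 and 328 in IBA, 274, 204 and 392 in Ent, 170, 192 and 203 in ET, and 186 and 185 in LT. The torpid livers lay close together (187 ± 12.1 CPM, SD, n = 5) at the bottom of a wide warm range (280 ± 77.9 CPM, SD, n = 6), and SA replicate 2, at 169 CPM, was the lowest library of all. The change from warm to torpid was -0.57 (SE 0.19, adjusted p = 0.020), and it no longer passed without IBA replicate 1 (-0.48, adjusted p just over 0.05), without LT replicate 1 (-0.57, adjusted p = 0.059) or without LT replicate 3 (-0.56, adjusted p = 0.058). The F10 unit, shared with the unnamed gene model G26746 and placed on Itri4 (plus strand, 195447437 to 195476548), held 80.7 to 123 CPM in warm and 58.4 to 111 CPM in torpid livers. Its change was -0.25 (SE 0.17, adjusted p = 0.22) in the full set. Leaving out ET replicate 1, which at 111 CPM was the highest torpid library, moved it to -0.40 with an adjusted p of 0.040.

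F5 and F2 encode the cofactor and the substrate of the complex that makes thrombin. F5 was lower in torpor, the merged unit of F2 did not pass, and the difference between them was not itself tested. F5 lay on Itri9, plus strand, from 99268346 to 99334024. SA libraries held 332, 289 and 306 CPM, IBA libraries 348, 290 and 267, Ent libraries 268, 209 and 311, ET libraries 209, 181 and 203, and LT libraries 168 and 230. All warm libraries were above all torpid ones, and Ent libraries spanned the gap between them. The mean was 305 ± 30.2 CPM (SD, n = 6) in warm and 198 ± 24.3 CPM (SD, n = 5) in torpid liver, a change of -0.62 (SE 0.13, adjusted p = 0.00092). The unit of F2 and Znf408, a zinc finger gene, ran on the minus strand of Itri3 from 20231053 to 20288964. It held 609, 538 and 610 CPM in SA, 631, 692 and 634 in IBA, 757, 695 and 648 in Ent, 813, 712 and 590 in ET, and 771 and 582 in LT. Its change was 0.16 (SE 0.11, adjusted p = 0.23) and passed the test only where libraries were scaled by their total counts (0.27, adjusted p = 0.033). That scaling moved the median change of all units from -0.04 to 0.07, and under it the 5 units named above were still called lower. Within libraries, the ratio of F5 to the F2 unit was 0.419 to 0.552 in warm and 0.218 to 0.396 in torpid livers, and that of Plg to the F2 unit was 1.26 to 1.49 and 0.515 to 0.728. Neither pair of ranges overlapped.

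**Figure D2:**
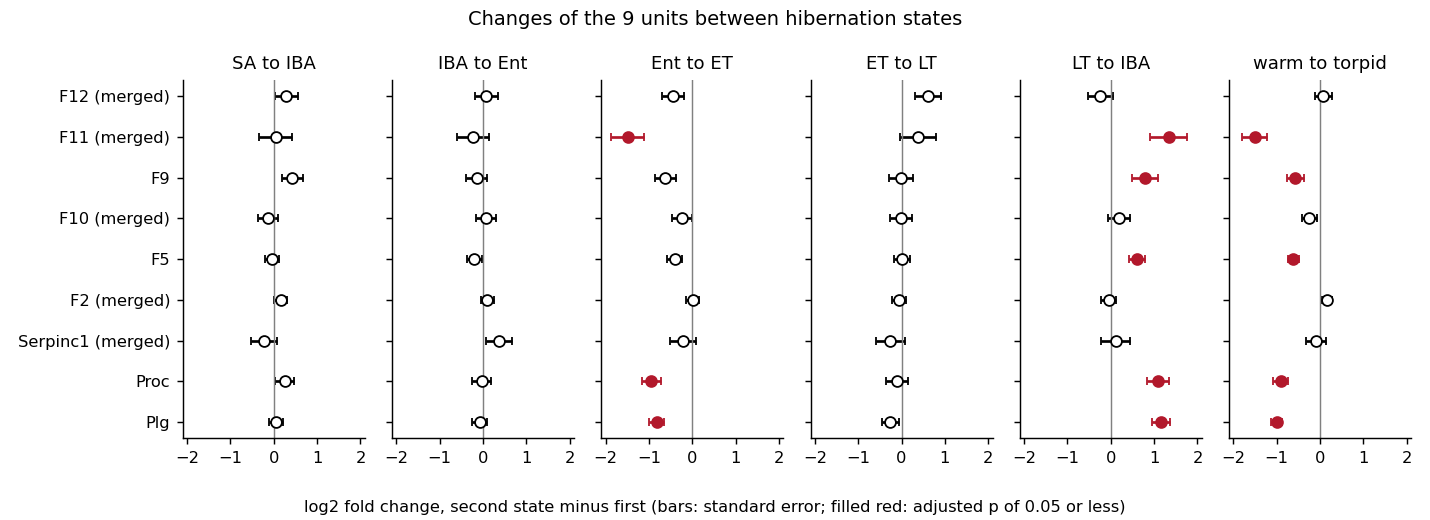
Log2 fold change of each unit, second state minus first, for 5 steps of the cycle and for warm (SA and IBA) to torpid (ET and LT) liver, with the standard error from edgeR. Filled red points passed an adjusted p of 0.05. Calls appear from Ent to ET (3 units lower), from LT to IBA (5 higher) and from warm to torpid (5 lower), and in no other step.

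When the 5 states were tested together, 4 of the 9 units were called, against 62.0% of all units: Plg (adjusted p = 0.00043), Proc (0.0025), the F11 unit (0.0054) and F5 (0.012). F9 had an adjusted p of 0.056. At 0.001, Plg alone was called, against 25.5% of all units. The share of members called was not above that of the table as a whole.

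The step from SA to IBA, which compares warm livers of summer and winter, called 0 of 9 units in edgeR and in DESeq2, with 0 at an unadjusted p under 0.05, against 5.22% of all units called in edgeR and 10.9% in DESeq2. Changes lay between -0.23 (Serpinc1 unit) and 0.43 (F9, SE 0.25, adjusted p = 0.35). From IBA to Ent, 0 of 9 were called by either tool and 0 had an unadjusted p under 0.05, against 16.1% of all units in edgeR and 22.8% in DESeq2. From Ent to ET, 3 units fell (the F11 unit, Proc and Plg), against 13.4% of all units called lower (at 0.001, 0 of 9 against 1.20%). F5 changed by -0.41 (SE 0.17, adjusted p = 0.084) and F9 by -0.62 (SE 0.25, adjusted p = 0.083) in this step, and both passed without Ent replicate 2 (-0.54, adjusted p = 0.038, and -0.80, adjusted p = 0.037). From ET to LT, 0 of 9 were called by either tool and 0 had an unadjusted p under 0.05, and of all units 0.269% were called in edgeR and 1.83% in DESeq2. The F12 unit had the largest change of that step, 0.61 (SE 0.29, adjusted p = 0.59).

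From LT to IBA, the arousal side of the cycle, 5 units rose: F5 by 0.60 (SE 0.19, adjusted p = 0.020), F9 by 0.79 (SE 0.29, adjusted p = 0.036), the F11 unit by 1.34 (SE 0.43, adjusted p = 0.021), and Proc and Plg as above. Of all units, 25.0% rose in this step, and at 0.001 Plg alone rose, against 7.73%. These groups shared no season, so a season covariate could be estimated only from SA and Ent and was carried over to LT and IBA. Whether season acted alike in these states was not tested. With this covariate 2 units stayed called, Proc at 1.71 (adjusted p = 0.00035) and Plg at 1.25 (adjusted p = 0.0049). F5 then had 0.48 (adjusted p = 0.17), F9 0.70 (adjusted p = 0.18) and the F11 unit 0.85 (adjusted p = 0.24). Single libraries also decided these 3 calls: F5 was lost without IBA replicate 1 (adjusted p = 0.073) or LT replicate 1 (0.21), the F11 unit without IBA replicate 1 (0.058), LT replicate 1 (0.068) or LT replicate 3 (0.13), and F9 without any of those 3 libraries (0.12 to 0.14) or IBA replicate 3 (0.072).

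Ent and LT were also compared, because both had libraries of the first season. Plg changed by -1.08 (SE 0.20, adjusted p = 0.0024) and Proc by -1.06 (SE 0.25, adjusted p = 0.0084), making 2 of 9 units called lower, against 13.4% of all units (at 0.001, 0 of 9 against 1.38%). In a fit of the first-season libraries alone the changes were -1.07 (adjusted p = 0.014) and -1.23 (adjusted p = 0.0070). Without LT replicate 1, Proc was at -1.04 with an adjusted p of 0.075. Within that season SA replicate 1 held 906 CPM of Plg against 347 and 412 in LT, and 99.5 CPM of Proc against 41.0 and 42.3. For F5 it held 332 CPM against 168 and 230, for F9 302 against 185 and 186, and for the F11 unit 598 against 166 and 211. A single SA library allows no test within the season, and in all 5 genes it lay above both LT libraries.

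Levels per length differed more between the units than between the states. Over all 14 libraries the mean was 41.2 ± 11.3 CPM per kb (SD) for the Serpinc1 unit, 18.6 ± 5.78 for Plg, 11.4 ± 1.38 for the F2 unit, 6.86 ± 3.82 for the F11 unit, 6.35 ± 2.21 for Proc, 6.23 ± 1.95 for F9, 4.78 ± 1.15 for the F12 unit, 3.93 ± 0.882 for F5 and 3.14 ± 0.600 for the F10 unit. In merged units the length includes the other genes. In warm livers the Serpinc1 unit (29.4 to 65.6 CPM per kb), Plg (19.6 to 24.8) and the F2 unit (9.29 to 11.9) formed separate ranges, while the F2 and F11 units overlapped and so did all neighbours further down. In torpid livers Plg (9.49 to 16.2 CPM per kb) overlapped the F2 unit (10.0 to 14.0), and the F11 unit, at 3.20 ± 0.648 CPM per kb (SD, n = 5), ranked below F9, whose range it did not reach, and below the F12 unit and Proc, whose ranges it overlapped.

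**Figure D3:**
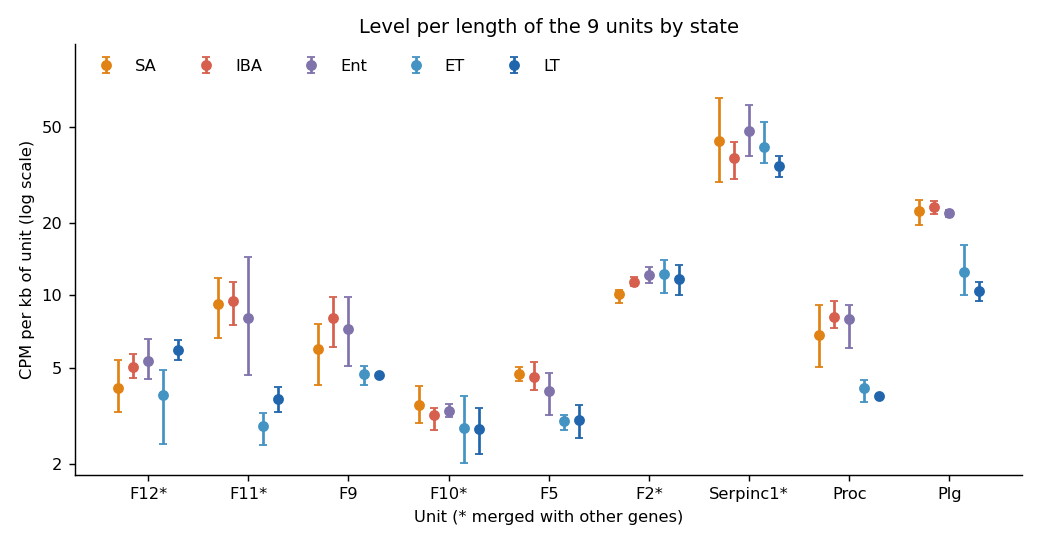
Level of each unit in CPM per kb of its length (log axis), by state. Points are state means and bars run from the lowest to the highest library. The Serpinc1 unit stays highest in all states, and Plg drops from 22.4 in SA, 23.2 in IBA and 22.0 in Ent to 12.5 in ET and 10.4 in LT, next to the F2 unit.

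Over the 14 libraries, Pearson r of log2 CPM, given as a description, lay between 0.59 (F9 with Proc) and 0.88 (Proc with Plg) for all pairs of the 5 members that fell in torpor. It was 0.87 for F5 with the F11 unit, 0.61 for F9 with Plg and 0.63 for F5 with Proc. The F10 unit, which did not pass, had r of 0.52 with Plg and 0.48 with F5. The F2 unit had r between -0.48 (with F5) and 0.09, and the Serpinc1 unit r between -0.43 (with the F12 unit) and 0.15. Of the other single-gene units, those most like Plg in log2 CPM were the gene model G5834 (r = 0.963) and Hmcn2 (r = 0.959), with torpid changes of -2.52 and -3.56. Proc was most like a gene model named ZNF768_containing (r = 0.943) and Gjb1 (r = 0.941), which encodes a gap junction protein of hepatocytes. F5 was most like Sall1, a zinc finger gene, and ABCG2_like_gene20019 (both r = 0.91), and F9 was most like the kinase gene Tlk1 (r = 0.899) and Ccdc91 (r = 0.898). All of these units are correlated through the same 14 animals and the same fall in torpor.

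Units next to the members changed in both directions. The nearest unit upstream of the F11 unit on the same strand, CYP4V2_like, lay 12523 nt away and changed by 0.45 (SE 0.19, adjusted p = 0.055) in torpor, with means of 400 CPM in SA and 83.2 in IBA. Arhgap1, which began 1058 nt upstream of the F2 unit on the opposite strand, fell by 1.72 (SE 0.16, adjusted p = 1.8e-06) while the F2 unit did not, and Ckap5, which overlapped the F2 unit on the opposite strand, fell by 0.39 (adjusted p = 0.0085). Around Proc, the neighbours Map3k2 (31056 nt upstream, merged with G31574) and the Iws1 unit (23269 nt downstream) rose by 0.43 (adjusted p = 0.0012) and 0.90 (adjusted p = 5.1e-06), both on the opposite strand. Rc3h1, 4327 nt upstream of the Serpinc1 unit on the same strand, changed by 0.01 (SE 0.11, adjusted p = 0.91).

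Of 42 other haemostasis genes listed, 17 had no unit, Klkb1 was in the F11 unit, and 24 had units of their own or merged with genes outside the list. Among these 24, 17 fell from warm to torpid liver, 0 rose (0 also at an unadjusted p under 0.05 and in DESeq2) and 7 did not pass, against 33.7% of all units called lower and 64.5% called in either direction. The median change was -0.73 beside -0.04 over all units. Tested over the 5 states, 13 of the 24 were called, against 62.0% of all units, so that the share was not above that of the table. By the role under which they were listed, 5 of 6 clotting units fell, 2 of 6 anticoagulant units and 3 of 4 units of fibrinolysis. So did 4 of 5 units of vitamin K modification and secretion, and 3 of 3 others. Each is to be read beside the 33.7% of all units, and the roles were not tested against each other. A role does not give the direction in which a product acts, and the fibrinolysis units that fell include the inhibitors Serpinf2 and A2m. Of the 4 fibrinolysis units 3 were merged, and Plat, Plau and Plaur had no unit. From Ent to ET 8 of the 24 fell, against 13.4% of all units, and from IBA to Ent 5 fell, against 7.34%. From LT to IBA 13 rose, against 25.0% of all units.

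Among the clotting genes of this list, Fgb, the fibrinogen beta chain, had 1080 ± 608 CPM (SD, n = 3) in SA, 1070 ± 371 in IBA, 699 ± 411 in Ent, 328 ± 142 in ET and 220 ± 55.6 in LT (n = 2), a torpid change of -2.0 (SE 0.38, adjusted p = 0.00058). The unit of Fga overlapped that of Fgb on the opposite strand. Kng1, the kininogen that carries F11 and prekallikrein in plasma, changed by -1.31 (SE 0.21, adjusted p = 0.00014). Its warm (404 to 1320 CPM) and torpid (348 to 501 CPM) libraries overlapped. F8, the cofactor of F9, changed by -0.05 (SE 0.10, adjusted p = 0.66) from warm to torpid liver and did not pass. It was called lower from Ent to LT (-0.55, adjusted p = 0.021). F5, the other cofactor of the pathway, passed from warm to torpid but not from Ent to LT (-0.40, adjusted p = 0.14). The difference between F5 and F8 was not tested.

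Among the genes listed with the anticoagulants, C4bpb, whose product binds protein S, lay in a unit merged with C4BPA_like and Pfkfb2. This unit had 390 ± 81.8 CPM (SD, n = 3) in IBA and 58.5 ± 6.88 in LT (n = 2). Its torpid change was -2.30 (SE 0.17, adjusted p = 4.1e-07), and which of these genes the reads came from cannot be told. Apoh, which binds phospholipid, changed by -1.95 (SE 0.24, adjusted p = 1.7e-05), and it had fallen already from IBA to Ent (-1.61, adjusted p = 0.0062). Pros1, protein S, the cofactor of protein C, changed by -0.29 (SE 0.17, adjusted p = 0.16), and the serpin genes Serpind1, Serpina5 and Serping1 had changes of -0.26, -0.17 and 0.11 with adjusted p from 0.23 to 0.75.

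On the fibrinolytic side, the unit of Hrg with Fetub and Ahsg changed by -2.06 (SE 0.31, adjusted p = 8.9e-05) and A2m, a protease inhibitor, by -2.03 (SE 0.44, adjusted p = 0.0013), the latter with IBA livers at 2980 ± 2420 CPM (SD, n = 3). Warm and torpid libraries overlapped in the Hrg unit (702 to 3560 and 361 to 723 CPM) and in A2m (416 to 5770 and 252 to 519 CPM). The unit of Serpinf2, antiplasmin, the inhibitor of plasmin, merged with a snoRNA, changed by -0.64 (SE 0.17, adjusted p = 0.0054), with overlapping warm and torpid libraries. From SA to IBA it was called higher, at 109 ± 22.0 and 212 ± 22.6 CPM (SD, n = 3 each, adjusted p = 0.028), the 1 call among the 24 units in that step, against 2.37% of all units. A2m (1.84, adjusted p = 0.076) and the C4bpb unit (0.71, adjusted p = 0.066) did not pass there. Of the enzymes that modify vitamin K-dependent factors, Vkorc1, in a unit with Prss53, changed by -1.34 (SE 0.17, adjusted p = 2.7e-05) and Ggcx, the gamma-carboxylase, by -0.52 (SE 0.12, adjusted p = 0.0017). Mcfd2, which serves the secretion of F5 and F8, changed by -0.81 (SE 0.09, adjusted p = 1e-05), whereas its partner Lman1, in a unit with Cplx4, changed by -0.08 (SE 0.14, adjusted p = 0.63). Thpo, the platelet growth factor, changed by -0.98 (SE 0.22, adjusted p = 0.0017) and Adamts13, which cuts von Willebrand factor, by -0.84 (SE 0.22, adjusted p = 0.0046). The warm and torpid libraries of Adamts13 overlapped.

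**Figure D4:**
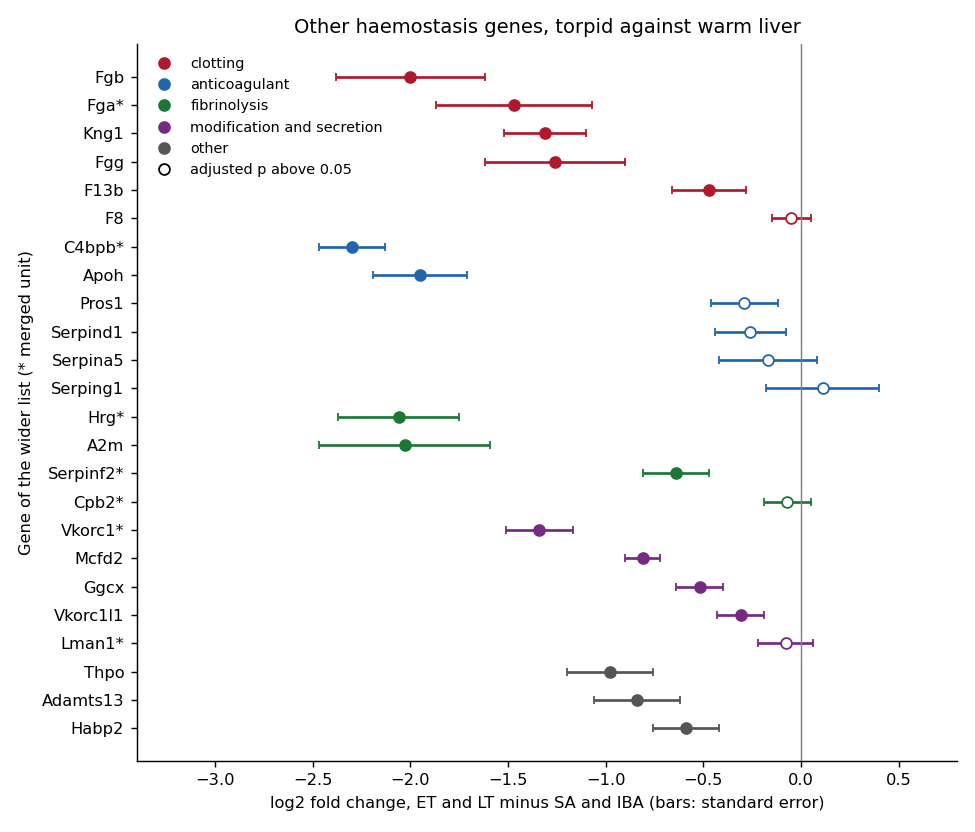
Log2 fold change from warm to torpid liver, with standard error, for the 24 units of the wider haemostasis list, coloured by role. Filled points passed an adjusted p of 0.05: 17 lie to the left of 0 and none to the right, and the 7 open points lie between -0.29 and 0.11.

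Other hepatocyte genes moved beside these. Of the 7 hepatocyte markers with a unit, Ttr changed by -2.25 (adjusted p = 2.8e-06), Alb, in a merged unit, by -1.51 (adjusted p = 0.0012) and the transcription factor gene Hnf4a by -1.10 (adjusted p = 1.1e-05). Apob changed by -0.23 (adjusted p = 0.22) and so, like the units of F2, F10, F12 and Serpinc1, did not pass.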

How the data were processed

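GRO-seq libraries of ground squirrel liver were trimmed with cutadapt and aligned with BWA to the HiC_Itri_2 genome by the authors, who extended gene bodies at the 3' end where segments called from the reads by fstitch ran further, merged overlapping genes, left out the 500 nt after each start and counted uniquely aligned reads with featureCounts. Each deposited value is the raw count of reads on a unit in 1 library, without normalization, and 14 libraries have a column (3 each of SA, IBA, Ent and ET, 2 of LT). Unit positions and lengths were taken from the deposited table.

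All 6324 units, of which 4705 hold a single gene, were fitted in 1 model of the 5 states with edgeR 4.0.16 under R 4.3.3 (TMM, quasi-likelihood, no unit removed, since filterByExpr would remove 0), and Benjamini-Hochberg adjustment ran over every unit of the table. A unit was called at an adjusted p of 0.05. The study's methods used DESeq2 and a stricter threshold of 0.001, which are alternatives here. Log2 CPM used a prior count of 2. Standard errors are the absolute log2 fold change divided by the square root of F. p-values judge a change against the spread between animals within states, estimated for each unit over all 5 states together. A library can therefore move a call in a comparison that leaves out its state. That spread includes counting error, which weighs more where counts are low, and its part was not estimated. The fit was tried on simulated counts for warm to torpid liver only, with known changes put into ET and LT. The other comparisons were not tried in this way. Python 3.11.15, numpy 2.4.6, pandas 2.3.3 and matplotlib 3.10.9 made the tables and figures.

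The members, the wider haemostasis list, the marker lists and the tests were chosen with earlier results of these data known. Named are all members with a unit, some of their nearest units (others are not reported here), the 2 single-gene units most like each single-gene member, and the 12 genes of the wider list with the lowest adjusted p over the 5 states. Others of that list (F8, Fga, Pros1, Serpind1, Serpina5, Serping1, Lman1) and of the markers were named after their values were seen. The comparison of Ent with LT was added after seeing the data. Seasons come from the study's animal records and not from the labels. RefSeq names (assembly mIctTri1.hap1) matched 9 of the 10 members and gave no coordinates. Promoter motifs were not searched. Alternatives were DESeq2 1.42.0, its size factors in edgeR, total counts or upper-quartile scaling, a minimum of 10 counts in every library (6292 units), single-gene units only, the replicate number as a blocking term, a season covariate, only the groups compared, and each library left out in turn.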

Additional observations from a re-analysis of the deposited data

How the results depend on the processing

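Counts of called members moved by no more than 1.5 times between settings, other than in the following. At an adjusted p of 0.001 the count fell from 4 to 1 for the 5 states together, from 3 to 0 from Ent to ET, from 5 to 1 from LT to IBA and from 2 to 0 from Ent to LT, while from warm to torpid liver it was 4 against 5. With season as a covariate, estimated from SA and Ent alone, 2 members were called from LT to IBA. Leaving out 1 library at a time gave 4 to 5 calls for the 5 states, 0 to 1 from IBA to Ent (the F11 unit, without Ent replicate 3), 3 to 5 from Ent to ET (F5 and F9 added without Ent replicate 2), 2 to 5 from LT to IBA, 4 to 6 from warm to torpid and 1 to 3 from Ent to LT. Replicate numbers did not pair the samples: 6 of 26 same-numbered pairs of libraries had deviations correlated over 0.1, and 13 of 52 pairs with other numbers. With the replicate block the counts were 5 for the 5 states, where F9 was added (adjusted p = 0.017), 3 from Ent to ET, 5 from LT to IBA, 5 from warm to torpid and 3 from Ent to LT (F9 added). The fit of single-gene units only held 4 members, and 4 were called both from warm to torpid and from LT to IBA. Of the single-gene values recomputed for the changes called and for the 5-state tests, none changed direction, 506 kept their side of the threshold, 30 lost it and 8, all of F9 over the 5 states, gained it. In comparisons where a gene had not been called, 9 further calls appeared under some setting. The causes were not tested. The 2 libraries of LT and 3 in the other states limit what could be detected in the units that did not pass, and the lowest counts behind a value were 128, for the F12 unit in ET replicate 2. No correction for season can be made for ET.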
